A study of Danio rerio with 12 samples.

Results

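The genes described here are 8 feedback inhibitors of ERK signalling: the dual specificity phosphatase genes dusp1, dusp2, dusp4, dusp5 and dusp6 and the Sprouty genes spry1, spry2 and spry4. They were chosen by symbol, and all 8 were found among the 31172 genes of both deposited tables. The choice was made with genotype differences of these samples in view, above all the lower level of dusp5, and it asks how the related genes stood beside it. Their genotype differences are therefore descriptions, given with their standard error (SE) and without p-values.

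RNA was sequenced from whole zebrafish embryos that were homozygous or heterozygous for etv2 Gt(2A-Gal4)ci32, a knock-in of a Gal4 cassette at etv2, the gene of an ETS transcription factor needed for endothelial and blood development. Embryos came from crosses between heterozygous carriers that also held UAS:GFP, a reporter that Gal4 turns on, so both genotypes carried at least 1 copy of the allele, and no wild type group enters any comparison. The genotypes were told apart by the pattern of GFP. There were 3 homozygous and 3 heterozygous libraries at the 15-somite stage, from embryos kept at 24 °C, and 3 of each at 24 hpf (hours post fertilization), from embryos kept at 28 °C. Each of the 12 libraries was made from a batch of 15 to 20 pooled embryos.

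Fibroblast growth factors (FGFs) and other ligands activate receptor tyrosine kinases, which switch on Ras and then the kinases Raf, MEK and ERK. ERK in turn raises the transcription of its own inhibitors. The phosphatases remove the activating phosphates from ERK and related kinases, and the Sprouty proteins act further upstream, between receptor and Raf. In zebrafish embryos dusp6, spry2 and spry4 are widely used as markers of FGF signalling at the midbrain-hindbrain boundary and tailbud, whereas dusp5 is known for its expression in developing vessels.

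The deposited values are log2 values relative to each gene's own median over the 6 libraries of its stage. They hold no absolute level beyond a coarse class of that median, and levels were compared neither between genes nor between stages. The total depth is unknown. From the steps between low values, depth relative to the other libraries of a stage spanned 0.909 to 1.14 for 15 somites and 0.965 to 1.06 for 24 hpf. Below, 100% is the geometric mean over the 3 heterozygous libraries of a stage, and differences are log2 values, homozygous minus heterozygous. Calls were made in limma where the adjusted p (Benjamini-Hochberg, over all genes with a median of at least 16 normalized units) was below 0.05. By that rule 630 of 18861 genes (3.34%) were lower and 128 (0.679%) higher in homozygous embryos at the 15-somite stage, or 743 lower and 283 higher after quantile normalization. At 24 hpf 48 of 19382 (0.248%) were lower and 6 (0.031%) higher. When any 1 library of the stage was left out, 53 to 353 were lower and 10 to 64 higher at the 15-somite stage, and 9 to 35 lower and 0 to 4 higher at 24 hpf. Heterozygous libraries are written het 1, 2 and 3 and those of homozygous embryos at 24 hpf hom 1, 2 and 3. Homozygous libraries of 15 somites are hom 2 and, because a pair of columns shares 1 name, hom a and b. As a check of the labels, etv2 itself differed by -2.83 (SE 0.10) at the 15-somite stage and by -3.15 (SE 0.24) at 24 hpf, with all homozygous libraries lower.

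The phosphatase gene dusp5 fell at both stages, while the other 7 genes differed by at most 0.34 on the log2 scale in either direction. The product of dusp5 (ENSDARG00000019307) is a nuclear phosphatase that acts on ERK. At the 15-somite stage dusp5 stood at 7.18%, 14.1% and 15.4% in hom 2, a and b, against 102%, 94.2% and 104% in het 1, 2 and 3. All homozygous libraries lay far below all heterozygous ones, and hom 2 was the lowest. The difference was -3.11 (SE 0.31), an 8.63-fold lower level. The filter acts on the median over all libraries of a stage, and here dusp5 lay in the class just above it. Its homozygous mean was -1.72 relative to that median (log2). Homozygous values may thus lie below 16 units, toward the floor of 1 set ahead of the log step. The size of this fall is uncertain to that extent. At 24 hpf dusp5 stood at 36.0%, 33.7% and 27.9% in hom 1, 2 and 3, against 102%, 101% and 97.1% in het 1, 2 and 3. The groups were again well apart, with less distance between them. The difference was -1.63 (SE 0.17), a 3.09-fold lower level. At this stage too the median of dusp5 lay in the class just above the filter, with a homozygous mean of -0.87 relative to it (log2). Since dusp5 was chosen for its fall, its calls, kept or lost in these same libraries, are no independent support for it. The call at the 15-somite stage remained whichever library was left out (-3.31 to -2.76). That at 24 hpf was lost without het 1 (-1.61), het 2 (-1.62), het 3 (-1.65), hom 2 (-1.66) or hom 3 (-1.52), and was kept without hom 1 (-1.70). In bulk RNA from whole embryos, fewer cells of a type and less RNA per cell cannot be told apart. Nor do such values show whether any of the other 7 genes changed in endothelial cells alone.

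**Figure D1:**
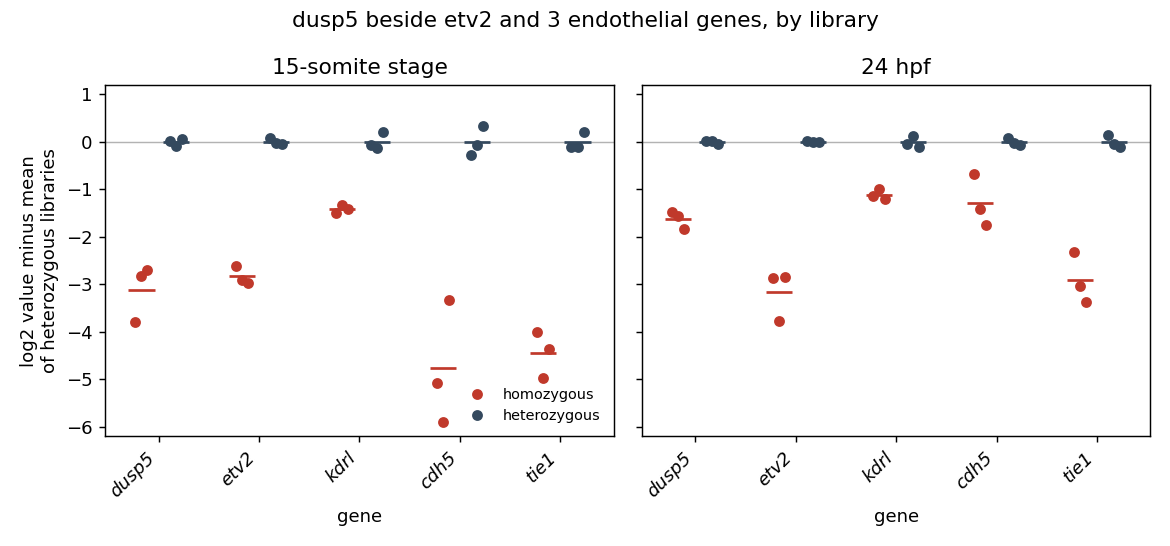
Values of dusp5, of the targeted gene etv2 and of the endothelial genes kdrl, cdh5 and tie1 in each library (log2, minus the mean of the heterozygous libraries) at the 15-somite stage (left) and 24 hpf (right). Each point is a library and each bar the mean of 3. Every homozygous library lies below every heterozygous library for all 5 genes at both stages.

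At each stage the fall of dusp5 was larger than that of some genes that mark endothelial cells and smaller than that of others. The range of these markers reached values near 0, so lying within it does not set a gene apart. A single marker, robo4, set that end of the range. Every other marker lay at or below -0.83 at the 15-somite stage and at or below -0.39 at 24 hpf. Of 20 listed endothelial markers, chosen with earlier results of these data known, 19 were found and tested. At the 15-somite stage 16 were called lower and 0 higher, where 3.34% of all tested genes were called lower. In all, 18 lay below 0 and 1 above. The median was -2.44 and the range -5.24 to 0.29, beside a median of 0.0 over all genes tested. The lowest difference was that of flt1, whose own median lay in the class just above the filter. Its homozygous mean was -3.40 relative to that median (log2), so the size of its fall is uncertain. At 24 hpf 11 of the 19 were called lower and 0 higher, where 0.248% of all tested genes were called lower. All 19 lay below 0 there, with a median of -1.28 and a range of -2.93 to -0.02. At each stage 8 of the 19 had a larger fall than dusp5. Some of those 8 had 15-somite medians in the class just above the filter, as dusp5 did, so their order there is uncertain. In the other 11 the fall was smaller or, for the 1 above 0 at the 15-somite stage, absent. Over all genes tested, 22 had a larger fall at the 15-somite stage and 61 at 24 hpf. The mean over the 19 markers, relative to the heterozygous mean, was -2.57, -2.72 and -2.82 in hom 2, a and b, against -0.06, -0.07 and 0.13 in het 1, 2 and 3, at the 15-somite stage. At 24 hpf it was -1.54, -1.46 and -1.65 in hom 1, 2 and 3, against 0.07, 0.0 and -0.07 in het 1, 2 and 3. The mean of the markers was thus lower in every homozygous library. At the 15-somite stage hom 2 was the lowest for dusp5 and had the least lowered mean, while at 24 hpf hom 3 was the lowest for both. Nothing is read from the order of 3 libraries. The marker robo4, named after its values were seen, stood at 0.29 (SE 0.08) with all homozygous libraries higher at the 15-somite stage. At 24 hpf it stood at -0.02 (SE 0.05) with overlapping groups. The part of the markers in the fall of dusp5 was not tested. The values do not show which markers are absent, since of absolute level they give only a class for each gene's median.

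Single markers differed in how far they fell beside dusp5. The VEGF receptor gene kdrl stood at 35.3%, 40.0% and 37.4% in hom 2, a and b, against 95.8%, 91.1% and 115% in het 1, 2 and 3, a difference of -1.41 (SE 0.10) at the 15-somite stage. Its difference at 24 hpf was -1.11 (SE 0.09), and the call there was lost without het 1 (-1.13). The fall of kdrl was thus the smaller one at both stages, and no test of the difference between the genes was made. The cadherin gene cdh5, whose product joins endothelial cells, stood at 2.95%, 1.69% and 10% in hom 2, a and b, against 82.6%, 95.9% and 126% in het 1, 2 and 3, a difference of -4.76 (SE 0.60); without het 2 (-4.79) or het 3 (-4.59) it was not called. At 24 hpf cdh5 differed by -1.28 (SE 0.25), with hom 1 at 62.8% above hom 2 at 37.4% and hom 3 at 29.9%, and was called only when hom 1 was left out (-1.58). The 15-somite median of cdh5, like that of dusp5, lay in the class just above the filter. Its homozygous mean was -2.97 relative to that median (log2), so the size of its fall there is likewise uncertain. The receptor kinase gene tie1 fell at both stages, with differences of -4.45 (SE 0.24) and -2.91 (SE 0.25). The call of tie1 at 24 hpf was lost without het 1 (-2.83), het 2 (-2.94), het 3 (-2.96) or hom 2 (-2.84).

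The difference of dusp5 was smaller at 24 hpf than at the 15-somite stage. Taken over all 12 libraries, its genotype effect at 24 hpf minus that at the 15-somite stage was 1.48 (SE 0.35), and it was among the 603 of 18106 genes (3.33%) called for such a difference between stages by a limma interaction. That call was lost without hom a of the 15-somite stage (1.62) or any 1 of its heterozygous libraries (1.45 to 1.53), and without any 1 library of 24 hpf (1.41 to 1.59). It remained without hom 2 (1.14) or hom b (1.69) of the 15-somite stage. A smaller difference at 24 hpf was not particular to dusp5. By the same interaction cdh5 (3.48, SE 0.72) and tie1 (1.54, SE 0.37) were called, and kdrl (0.31, SE 0.14) was not. On simulated tables this interaction made more false calls than its threshold implies. Whether the stage calls of cdh5 and tie1 held with 1 library left out is not given here. Values near the floor, possible for dusp5 and cdh5 in 15-somite homozygous libraries, would also make the sizes of their stage differences uncertain. The stages also differ in age and in incubation temperature, which cannot be told apart here.

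Among the other 7 genes, 6 passed the filter at the 15-somite stage, with differences of -0.02 to 0.33 and a median of 0.21, and all 7 passed at 24 hpf, with differences of -0.28 to 0.07 and a median of -0.04. Counting dusp5, 1 of 7 tested genes was called lower and 1 called higher at the 15-somite stage, where 4.02% of all tested genes were called in either direction. At 24 hpf 1 of 8 was called lower and 0 higher, where 0.279% of all genes were called. The libraries of the genotypes did not overlap for 3 of the 8 genes at the 15-somite stage, 1 lower and 2 higher, and for 3 of the 8 at 24 hpf, all lower. Over all tested genes such separation occurred for 28.8% at the 15-somite stage (15.5% lower, 13.3% higher) and for 12.8% at 24 hpf (6.51% lower, 6.32% higher). Since the genes were picked on this contrast, nothing is read from these shares. None of the 8 lies on the chromosome of etv2 in the RefSeq annotation.

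**Figure D2:**
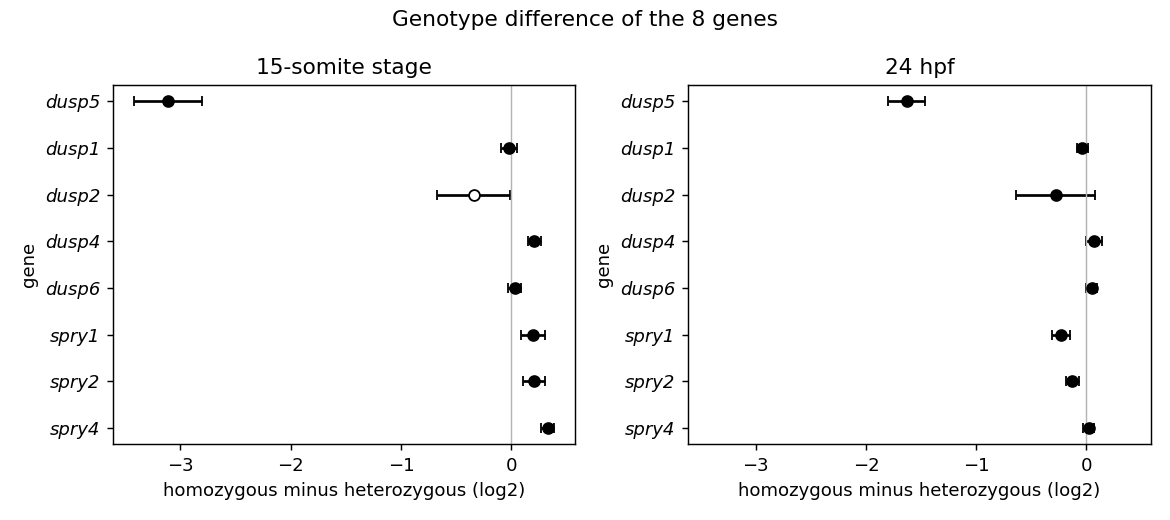
Homozygous minus heterozygous difference (log2, point) with its SE (bar) of the 8 genes at the 15-somite stage (left) and 24 hpf (right), from 3 libraries per genotype. The open point of dusp2 at the 15-somite stage marks a gene below the filter, with an SE from its own 6 values. Only dusp5 lies beyond 0.34 on either side of 0, at -3.11 and -1.63.

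The phosphatase gene dusp6 (ENSDARG00000070914), whose product acts on ERK in the cytoplasm and which is the phosphatase gene most used as a readout of FGF signalling, gave nearly the same values in both genotypes. Its 15-somite values were 104%, 105% and 98.3% in hom 2, a and b, against 103%, 97.0% and 99.6% in het 1, 2 and 3. The groups overlapped, and the difference was 0.03 (SE 0.06). The values at 24 hpf were 104%, 104% and 103% in hom 1, 2 and 3, against 94.8%, 102% and 104% in het 1, 2 and 3. The groups overlapped at het 3, and the difference was 0.05 (SE 0.05). Without 1 library it was 0.01 to 0.06 at the earlier stage and 0.01 to 0.08 at the later one.

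The gene dusp1 (ENSDARG00000007628) encodes a nuclear phosphatase of stress and growth factor responses that acts on p38 and JNK as well as ERK. At the earlier stage its values were 101%, 102% and 93.9% in hom 2, a and b, against 105%, 96.7% and 98.5% in het 1, 2 and 3. Its 24 hpf values were 98.0%, 97.1% and 97.1% in hom 1, 2 and 3, against 101%, 95.3% and 104% in het 1, 2 and 3. The groups overlapped at both stages, with differences of -0.02 (SE 0.07) and -0.04 (SE 0.05), and without 1 library they ranged from -0.04 to 0.02 and from -0.07 to -0.01.

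The nuclear phosphatase gene dusp4 (ENSDARG00000044688) was higher in all homozygous libraries at the 15-somite stage but was not called. It stood at 112%, 115% and 119% in hom 2, a and b, against 95.8%, 102% and 102% in het 1, 2 and 3, a difference of 0.21 (SE 0.06). Later, at 24 hpf, it stood at 112%, 107% and 96.0% in hom 1, 2 and 3, against 96.0%, 98.8% and 105% in het 1, 2 and 3. There the groups overlapped, and the difference was 0.07 (SE 0.07), with 0.02 to 0.13 when 1 library was left out.

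The remaining phosphatase gene, dusp2 (ENSDARG00000036572), whose product is a nuclear phosphatase best known from immune cells of mammals, was the 1 gene of the 8 below the filter at the 15-somite stage, with a median between 4 and 16 normalized units, and was not tested there. It stood at 73.5%, 94.2% and 71.1% in hom 2, a and b, against 131%, 65.6% and 117% in het 1, 2 and 3. The lowest value was that of het 2, so the groups overlapped, and the difference was -0.34 with an SE of 0.33 from its own 6 values. At 24 hpf it passed the filter and stood at 63.8%, 88.6% and 98.2% in hom 1, 2 and 3, against 148%, 115% and 59.1% in het 1, 2 and 3. The spread within each genotype was wider than for any other of the 8 genes at that stage, and the difference was -0.28 (SE 0.36). It was 0.0 without het 1, -0.18 without het 2, -0.10 without hom 1 and -0.66 without het 3. Between the stages the genotype effects of dusp1 (-0.02, SE 0.08), dusp4 (-0.14, SE 0.09) and dusp6 (0.02, SE 0.08) were not called as different, and dusp2 was not tested for this.

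**Figure D3:**
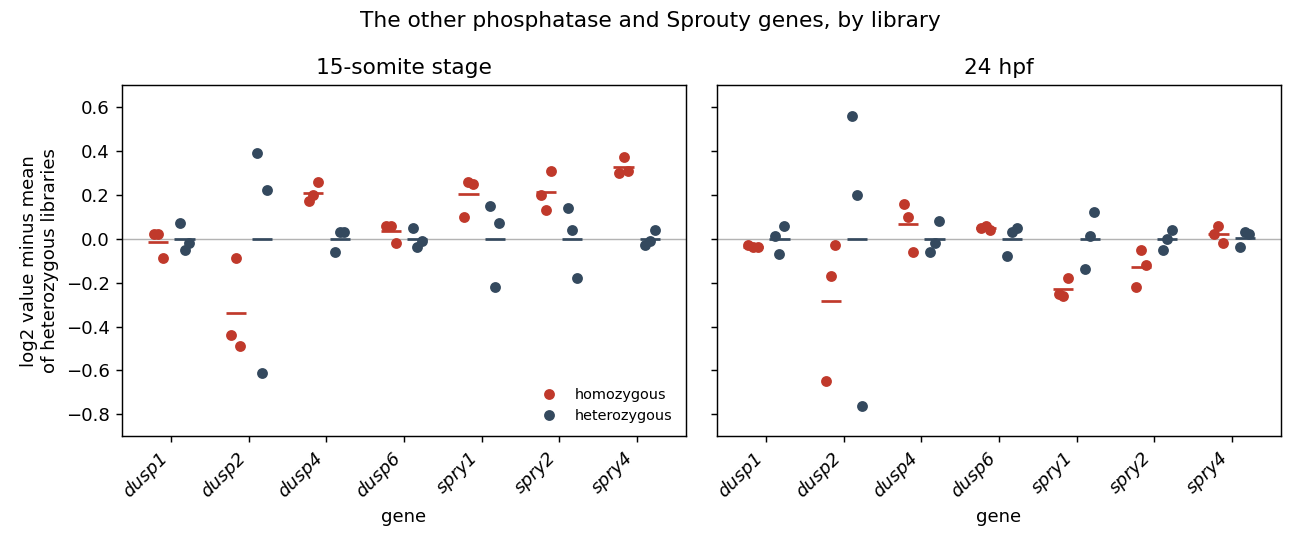
Values of the 7 genes other than dusp5 in each library (log2, minus the mean of the heterozygous libraries) at the 15-somite stage (left) and 24 hpf (right). Each point is a library and each bar the mean of 3; dusp4 and spry4 are separated by genotype at the 15-somite stage, with homozygous libraries higher, and spry1 and spry2 at 24 hpf, with homozygous libraries lower.

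Of the Sprouty genes, spry4 (ENSDARG00000068732) was the 1 that was called, and it was higher. In 15-somite embryos it stood at 123%, 129% and 124% in hom 2, a and b, against 97.8%, 99.2% and 103% in het 1, 2 and 3. The homozygous libraries lay close together and above all heterozygous ones. The difference was 0.33 (SE 0.06), a level 1.25-fold higher. The call was lost when any 1 library of the stage was left out, with differences of 0.30 to 0.35, and when 1 prior spread served all genes. At 24 hpf spry4 stood at 101%, 104% and 98.8% in hom 1, 2 and 3, against 97.0%, 102% and 101% in het 1, 2 and 3, a difference of 0.02 (SE 0.05) with overlapping groups. Its genotype effect at 24 hpf minus that at the 15-somite stage was -0.30 (SE 0.07). That difference was called among the 3.33% of all genes, and its call was lost whichever of the 12 libraries was left out (-0.33 to -0.28).

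The other Sprouty genes, spry1 and spry2, gave positive differences at the earlier stage and negative ones at the later stage, none of them called. In 15-somite embryos spry1 (ENSDARG00000024286) stood at 108%, 119% and 119% in hom 2, a and b, against 111%, 86.1% and 105% in het 1, 2 and 3, a difference of 0.20 (SE 0.11) with overlapping groups, which was 0.10 without het 2. Its 24 hpf values were 84.0%, 83.4% and 88.1% in hom 1, 2 and 3, against 91.0%, 101% and 109% in het 1, 2 and 3. All homozygous libraries were lower there, and the difference was -0.23 (SE 0.08). The related gene spry2 (ENSDARG00000078308), in 15-somite embryos, stood at 115%, 109% and 124% in hom 2, a and b, against 110%, 103% and 88.4% in het 1, 2 and 3, a difference of 0.21 (SE 0.10), which was 0.12 without het 3. Its groups overlapped by hom a and het 1. Its 24 hpf values were 86.0%, 96.3% and 92.3% in hom 1, 2 and 3, against 96.7%, 100% and 103% in het 1, 2 and 3. The homozygous libraries were lower, by a narrow margin between hom 2 and het 1, and the difference was -0.13 (SE 0.06). The difference between stages was -0.44 (SE 0.13) for spry1 and -0.34 (SE 0.12) for spry2, and neither was called.

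The rest of the FGF and ERK pathway was described with 6 lists of 122 genes, of which 106 were found. At the 15-somite stage 0 of 91 tested genes were called by limma, where 4.02% of all tested genes were called in either direction. At an unadjusted p below 0.05, 3 were lower and 15 higher, where 11.7% of all tested genes were lower and 9.42% higher. Their median difference was 0.06, with 63 of 91 above 0 where 50.8% of all tested genes were, and differences ran from -0.84 to 0.90. The libraries of the genotypes did not overlap for 6 of them in the lower direction and 22 in the higher. Over all tested genes those shares were 15.5% and 13.3%. The lists were chosen with earlier results of these data known, so nothing is read from such counts. At 24 hpf 0 of 92 were called, where 0.279% of all tested genes were. At an unadjusted p below 0.05, 1 was lower and 2 higher, where 4.03% of all genes were lower and 3.10% higher. The median was 0.0, with 49 of 92 above 0 where 50.3% of all tested genes were, and the range was -0.74 to 0.64. Here 3 of the 92 were separated in the lower direction and 9 in the higher, beside 6.51% and 6.32% of all tested genes. With all 12 libraries in 1 fit, 3 pathway genes were called higher at the 15-somite stage: fgf18a (0.90), braf (0.31) and the receptor gene fgfr1a (0.23), the last named after its values were seen. That fit called 3.43% of all tested genes higher, a share near that of the pathway genes.

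**Figure D4:**
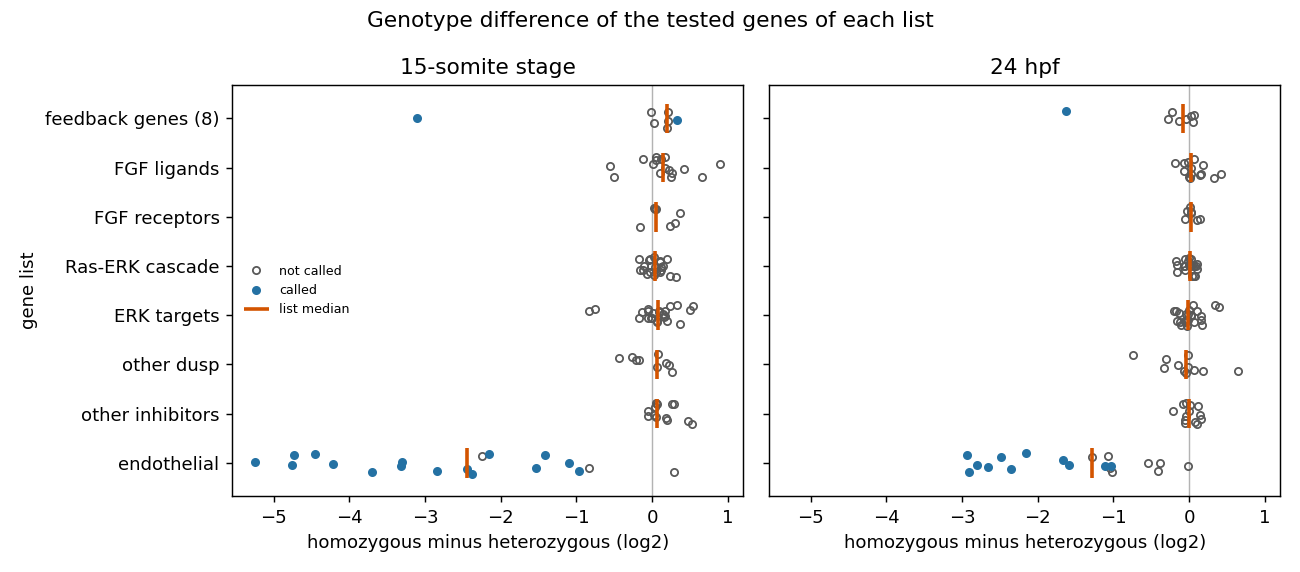
Homozygous minus heterozygous difference (log2) of each tested gene of the 8 feedback genes, the 6 pathway lists and the endothelial markers, at the 15-somite stage (left) and 24 hpf (right). Filled points are called genes and orange bars list medians. The pathway lists lie between -0.84 and 0.90 with 0 called genes at either stage, where 4.02% and 0.279% of all tested genes were called. The endothelial markers have medians of -2.44 and -1.28.

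Among the ligands, 16 of 25 FGF genes passed the filter at the 15-somite stage and 14 at 24 hpf, with medians of 0.14 and 0.03, and the others lay below the filter. Among the tested ligands the largest difference at the earlier stage was that of fgf18a, at 204%, 130% and 245% in hom 2, a and b, against 108%, 87.8% and 105% in het 1, 2 and 3. All homozygous libraries were higher, and the difference of 0.90 (SE 0.27) did not pass in limma (adjusted p = 0.119). At 24 hpf it was fgf20b, at 0.42 (SE 0.42, limma adjusted p = 0.908) with overlapping groups, and without het 2 its difference was -0.07. All 7 receptor genes were tested, with medians of 0.05 at the 15-somite stage and 0.03 at 24 hpf. The largest were those of fgfr1b at the 15-somite stage (0.37, SE 0.12, limma adjusted p = 0.157) and of fgfrl1a, which encodes a receptor without a kinase domain, at 24 hpf (0.15, SE 0.06, limma adjusted p = 0.705).

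In the cascade from receptor adaptors to ERK, 22 of 25 genes were tested at each stage, with medians of 0.03 and 0.0 and all differences within -0.18 to 0.31. The Raf kinase gene braf gave the largest difference at the 15-somite stage, at 115%, 132% and 125% in hom 2, a and b, against 93.5%, 101% and 105% in het 1, 2 and 3. The groups did not overlap, as for 13.3% of all tested genes in this direction, and the difference was 0.31 (SE 0.08, limma adjusted p = 0.0891). Another Raf gene, raf1b, gave the largest at 24 hpf, with -0.18 (SE 0.06, limma adjusted p = 0.573). Of genes that act downstream of ERK, 24 passed the filter for 15 somites and 25 for 24 hpf, with medians of 0.07 and -0.02. Of those that passed, the AP-1 subunit gene fosl1a had the largest difference at both stages, with -0.84 (SE 0.44, limma adjusted p = 0.322) and 0.39 (SE 0.45, limma adjusted p = 0.917). Its 15-somite value rested on hom b at 26.5%, beside hom 2 at 78.0% and hom a at 84.0%, and without hom b the difference was -0.30.

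The ETS factor genes etv4 (pea3 in the tables), etv5a and etv5b are, like dusp6, standard readouts of FGF signalling, and were picked out of that list after their values were seen. At the 15-somite stage their differences were 0.09 (SE 0.05), 0.17 (SE 0.07) and 0.17 (SE 0.06), with limma adjusted p = 0.414, 0.223 and 0.207, and at 24 hpf 0.16 (SE 0.06), 0.16 (SE 0.05) and -0.01 (SE 0.06), with limma adjusted p = 0.653, 0.578 and 0.993. None of them passed. All homozygous libraries were higher for etv4 and etv5a at both stages and for etv5b at the 15-somite stage, and etv5b overlapped at 24 hpf. Such separation upward occurred for 13.3% of all tested genes at the 15-somite stage and 6.32% at 24 hpf.

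Other phosphatases of the family and other inhibitors of the pathway also gave 0 calls. Over all tested genes 4.02% were called at the 15-somite stage and 0.279% at 24 hpf, so 0 calls in lists this short say little. Of 21 other dusp genes 13 were found, and 9 were tested at the 15-somite stage (median 0.06) and 11 at 24 hpf (median -0.04). Among the tested genes, the largest differences were those of dusp14 at the 15-somite stage (-0.44, SE 0.20, limma adjusted p = 0.261) and of dusp28 at 24 hpf (-0.74, SE 0.48, limma adjusted p = 0.834). The difference of dusp28 was -0.25 without hom 2. Of 16 other inhibitors 13 were tested at each stage, with medians of 0.07 and 0.0. The neurofibromin gene nf1b, which encodes a protein that turns Ras off, stood at 145%, 157% and 132% in hom 2, a and b, against 86.6%, 92.3% and 125% in het 1, 2 and 3. Its homozygous libraries were higher, and the difference was 0.53 (SE 0.15, limma adjusted p = 0.110). At 24 hpf the largest was that of rasa3, a gene of another protein that turns Ras off, with -0.21 (SE 0.09, limma adjusted p = 0.714), which was -0.12 without het 1.

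Markers of tissues with strong FGF signalling were not called at either stage. Over all tested genes 4.02% were called at the 15-somite stage and 0.279% at 24 hpf. The median difference of 11 tailbud and presomitic mesoderm genes was 0.17 at the 15-somite stage, with 1 lower and 4 higher at an unadjusted p below 0.05 in limma, where 11.7% of all tested genes were lower and 9.42% higher. That of 9 tested at 24 hpf was -0.04, with 0 in either direction, where 4.03% of all genes were lower and 3.10% higher. The 8 midbrain-hindbrain boundary genes had medians of 0.11 and -0.06, with 1 higher at the 15-somite stage and 0 at 24 hpf by that threshold. The 8 neural genes had medians of 0.05 and -0.05, and skeletal muscle genes -0.03 (7 tested) and -0.05 (8 tested). At an unadjusted p below 0.05, 1 neural gene was higher at the 15-somite stage, and 1 neural and 1 muscle gene were lower at 24 hpf. At the 15-somite stage, where spry4 and dusp4 were higher, list means were taken per library. Tailbud means were 0.04, 0.12 and 0.22 in hom 2, a and b. Against these stood 0.06, 0.02 and -0.07 in het 1, 2 and 3. In the same order midbrain-hindbrain means were 0.13, 0.03 and 0.19 against 0.04, -0.04 and 0.0. Neural means were 0.10, 0.02 and 0.17 against 0.01, -0.03 and 0.02. Muscle means were 0.01, -0.18 and 0.03 against 0.25, -0.12 and -0.13. The part of these tissues in the values of spry4 and dusp4 was not tested.

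The genes most like dusp5 across the 12 libraries were found by the root mean square difference of their log2 values from those of dusp5, among 14834 genes with a descriptive symbol tested at both stages. They were arhgef9b (0.333), sox7 (0.368), ITGB2 (0.432), RASIP1 (0.473) and shank3b (0.481). The measure takes in the genotype difference on which dusp5 was chosen, and all 12 points share that contrast. The closest, arhgef9b, stood at 13.6%, 14.2% and 22.3% in hom 2, a and b, against 98.9%, 89.3% and 113% in het 1, 2 and 3, and at 45.9%, 40.2% and 45.8% in hom 1, 2 and 3 at 24 hpf, against 110%, 105% and 87.1% in het 1, 2 and 3. Each of its homozygous libraries thus stood above the same library's value for dusp5. The next, sox7, a gene of an endothelial transcription factor and one of the 19 markers, stood at 10.1%, 8.01% and 12.5% in hom 2, a and b, and at 46.9%, 60.8% and 39.9% in hom 1, 2 and 3 at 24 hpf, with all heterozygous libraries between 96.1% and 106%. RASIP1, a gene of vessel lumen formation, is also among the 19 markers, while arhgef9b, ITGB2 and shank3b are not.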

How the data were processed

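The authors deposited 1 table of log2 values per stage, normalized per library. The values show a floor of 1 set ahead of the log step, and each gene's median over the 6 libraries of its stage was then subtracted. The submitters' processing notes name Zv9 as a genome build and DESeq as a tool; for aligner, counter and annotation, names and versions were not given in the sources used. Each table was made from batches of whole embryos, 3 homozygous and 3 heterozygous. No value column was left unused.

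Read counts could not be recovered: 1 read was worth 0.881 to 1.10 normalized units for 15 somites and 0.941 to 1.04 for 24 hpf, but only 43.9% to 57.2% and 45.5% to 53.7% of low values were whole reads within 0.001. No count test was run, and no counting interval can be given. The binary precision of the stored numbers gives the class of each gene's median: below 4, 4 to 16, and 2 higher classes. Genes at 16 or above were tested within a stage with limma 3.58.1 in R 4.3.3, two-sided, without a replicate block, with a prior spread per class and Benjamini-Hochberg adjustment over all tested genes. The difference between stages was tested as an interaction over the genes tested at both. The p-values set each difference against the spread between these batches, drawn toward the prior spread of the gene's class. The fits and the level classes were tested on simulated tables with known differences. The fits that pool the spread of both stages (the interaction, and the alternative with all 12 libraries) made more false calls there than their threshold implies. Those tables took each gene's spread as estimated separately at each stage. Error in these estimates adds to the difference in spread between stages, and its part in the false calls was not tested.

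The 8 genes and all gene lists were chosen with earlier results of these data known. Of 186 listed symbols 168 were matched, with current symbols found for 20756 gene IDs, and 2 that matched 2 genes each were left out. Chromosome membership came from the RefSeq annotation of GRCz12tu. Named are all 8 genes, etv2, kdrl, cdh5 and tie1, and the 5 genes most like dusp5. For each pathway list every called gene is named or, with none, the tested gene with the largest difference at each stage. Outside this rule, robo4, fgfr1a, etv4, etv5a and etv5b were named after their values were seen. Alternatives were 1 prior spread, a stricter or no filter on level, quantile normalization, all 12 libraries in 1 fit, the replicate number as a block, leaving out each library, and a Pearson ranking of likeness.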

Additional observations from a re-analysis of the deposited data

Results flagged for a closer look

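The genotype effect of dusp5 differed between stages by 1.48 on the log2 scale (24 hpf minus 15 somites, SE 0.35) by the limma interaction, with -1.63 at 24 hpf against -3.11 at the 15-somite stage. That of spry4 differed by -0.30 (SE 0.07), with 0.02 at 24 hpf against 0.33 at the 15-somite stage. Both genes were chosen with the genotype differences known, 3.33% of all genes tested at both stages were called in this way, and the threshold was missed by both with 1 prior spread for all genes. The endothelial genes cdh5 (3.48) and tie1 (1.54) were also called by the interaction, and kdrl (0.31) was not. The interaction made more false calls on simulated tables than its threshold implies. Homozygous values of dusp5 and cdh5 at the 15-somite stage may lie near the floor, which leaves the sizes of their stage differences uncertain.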

How the results depend on the processing

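The fall of dusp5 at the 15-somite stage stayed below 0 and past the threshold under all alternatives run on it. The gene was chosen for this fall, so that is a description and no independent support. For dusp5 at 24 hpf the range without 1 library was -1.70 to -1.52, and for its difference between stages 1.14 to 1.69. With 1 prior spread for all genes, the stage difference of dusp5 (1.48) and both calls of spry4 missed the threshold, 197 genes were lower and 39 higher at the 15-somite stage, 1 of the 8 genes was called there, and 2 genes were higher at 24 hpf. With all 12 libraries in 1 fit 1151 were lower and 647 higher at the 15-somite stage, and 3 pathway genes were called, which were braf, fgf18a and fgfr1a. Quantile normalization gave 283 higher there. A filter that kept only the highest class of level gave 200 higher there, and, since it leaves out dusp5, 1 of the 8 genes called there and 0 at 24 hpf. Leaving out 1 library gave 53 to 353 lower and 10 to 64 higher genes at the 15-somite stage with 1 of the 8 called, and 9 to 35 lower and 0 to 4 higher at 24 hpf with 0 to 1 of the 8 called. Leaving out 1 library also turned small differences round: dusp1 at the 15-somite stage (-0.04 to 0.02), spry4 (0.0 to 0.04), fgf20b (-0.07 to 0.78) and fosl1a (-0.08 to 0.83) at 24 hpf, and the stage differences of dusp1 (-0.06 to 0.01) and dusp6 (-0.02 to 0.04). The causes were not tested. Ranking by Pearson correlation kept 2 of the 5 genes most like dusp5. Depth is unknown, so the precision of a value is known only from the 3 libraries of its group.

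Same-numbered libraries at 24 hpf did not deviate together over all tested genes (correlations 0.097, 0.012 and -0.007). Differently numbered ones ranged from -0.094 to 0.084. The labels do not say whether the replicate number is a pairing, and these correlations cannot exclude one that acts on some genes. With the replicate number as a block at 24 hpf, 20 genes were lower and 1 higher, dusp5 (-1.63) was not called, and 0 of the 8 genes were. No paired analysis was possible at the 15-somite stage because 2 homozygous columns share a name.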
